A study of Danio rerio with 2 samples.

Results

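Growth hormone and the insulin-like growth factors (IGFs) form the endocrine system that drives body growth, and 10 of its genes were followed here in swim-trained zebrafish larvae. They are the hormone gene gh1, the hormone receptors ghra and ghrb, the ligands igf1, igf2a and igf2b, the IGF receptors igf1ra and igf1rb, and the binding proteins igfbp2a and igfbp3. The genes were chosen by name, and their probes were found by matching each probe's accession to a RefSeq gene table. All 10 genes had a probe, which gave 20 of the 43603 probes on the array. The matching named 12900 genes in all.

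The trained group was a pool of 10 whole larvae that swam in sessions of 3 hours each day from 5 to 10 days after fertilisation. The control group was a pool of 10 untrained larvae of the same age. Both pools were wild type fish from a cross named Zod2, of Wageningen and Tubingen stock, frozen at 10 days at the end of the day. Each pool was measured on 2 arrays with the dyes exchanged, so that trained RNA carried Cy5 on array 1 and Cy3 on array 2. With 1 pool per condition there was no biological replicate, and no test between conditions was possible.

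Growth hormone is made in the pituitary and acts through its receptor on the kinase Jak2 and the factor Stat5, which in liver and other tissues drive Igf1 transcription. IGFs bind a receptor tyrosine kinase that signals through phosphoinositide 3-kinase, Akt and mTOR to protein synthesis and cell growth. Binding proteins carry IGFs in plasma and tissue fluid and limit or prolong their action. Zebrafish keep duplicate copies of many of these genes, marked a and b.

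Direction rested on the sample titles and channel labels, while the design text names the same dye order for both arrays, and the 2 arrays' trained over control ratios had a Pearson r of -0.04 over 30886 probes. The deposited ratios of the same probes gave an r of 0.11. Across the channels, 71.5% to 84.3% of probes were well above background, with median raw signals of 137 to 179. Precision is limited by there being 2 arrays. In these extracts of whole larvae, fewer cells of a type and less RNA per cell cannot be told apart.

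None of the growth hormone and IGF genes differed by 1.5-fold or more between the trained and control pools in the same direction on both arrays. A probe counted as measured when it was well above background in both channels of both arrays, which held for 14 of the 20 probes and 7 of the 10 genes. The size rule was met by 0 of these 7 genes in the higher direction, where 0.638% of the 11121 measured genes met it. It was met by 0 of 7 in the lower direction, against 0.054% of measured genes. With such rare calls over the array, a count of 0 among 7 is close to the background. Under a 1.2-fold rule the members again gave 0 of 7 in either direction, against 3.74% of measured genes higher and 1.35% lower.

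The signs on the arrays mostly disagreed. Of the 7 measured genes, 6 were opposite in sign on the 2 arrays, 1 was lower on both and 0 were higher on both. Over all measured genes 53.6% were opposite, 22.1% lower on both and 24.3% higher on both. These counts rest on the dye exchange. With array 2 not turned, an alternative chosen after seeing the data, 3 of the 7 were higher on both arrays, 3 lower on both and 1 opposite, and 0 reached 1.5-fold on both. Over all measured genes that gave 25.3% higher on both, 28.2% lower on both and 46.4% opposite. At 1.5-fold on both it gave 0.566% higher and 0.009% lower, against 0.638% and 0.054% with array 2 turned. The median log2 ratio of the members was -0.01, with -0.08 on array 1 and -0.02 on array 2. The median over all measured genes was 0.00, with 0.00 and 0.02 on the arrays. Their mean ratios ran from -0.24 to 0.13, within the central 95% of measured genes, which spanned -0.33 to 0.44.

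**Figure D1:**
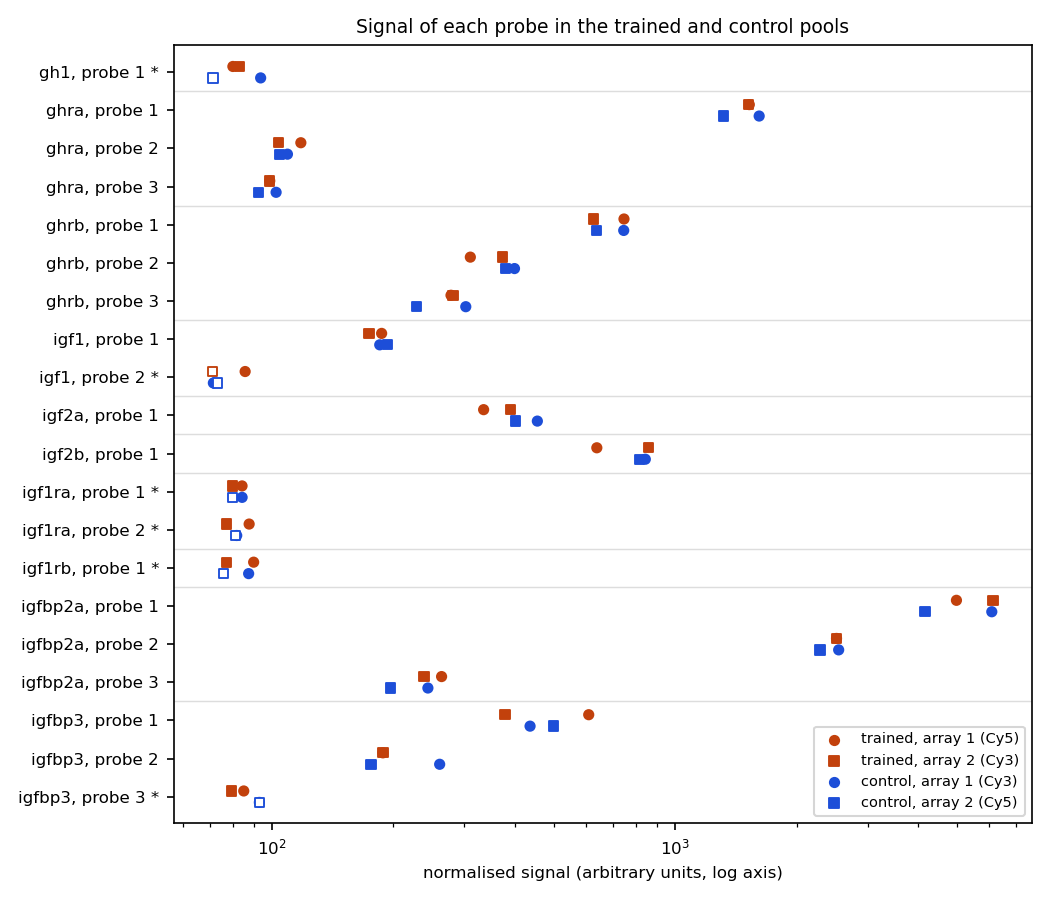
Normalised signal of every probe of the 10 genes in arbitrary units on a log axis, in the trained pool (orange) and the control pool (blue), on array 1 (circles) and array 2 (squares). Open symbols were not well above background, an asterisk marks a probe not measured in all 4 channels, and probes are numbered from the brightest; gh1, igf1ra and igf1rb lie near the low end, and igfbp2a reached 6138.

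The gene gh1 encodes growth hormone itself. Signals are given in arbitrary units, normalised within each array but not between arrays. The single gh1 probe had signals of 80.0 and 83.0 in the trained pool on arrays 1 and 2, against 93.7 and 71.4 in the control pool. The trained values lay between the control values. Here and below, a pool's 2 values are readings of the same RNA on arrays not scaled to each other. Their order gives no spread between fish. On array 2 the control pool was not well above background, and the log2 ratios were -0.23 on array 1 and 0.22 on array 2. The deposited ratio of array 2 was 1.05, with a technical error of 0.75 by the scanner software, and that of array 1 was -0.02, with an error of 0.32. No direction can be given for gh1.

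The receptor genes ghra and ghrb encode the a and b copies of the growth hormone receptor, and all 6 of their probes were measured. The brightest probe of ghra had signals of 1527 and 1519 in the trained pool, against 1615 and 1316 in the control pool. The trained values again lay between the control values, and the log2 ratios were -0.08 and 0.21, with a mean of 0.06. The other probes of ghra had mean ratios of 0.05 and 0.02, so that the 3 probes ran from 0.02 to 0.06. For the dimmest of them the deposited ratios were -0.23 on array 1 and 0.73 on array 2, with errors of 0.25 and 0.32.

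The brightest probe of ghrb had signals of 746 and 627 in the trained pool, against 745 and 637 in the control pool. Its log2 ratios were 0.00 and -0.02, the nearest to 0 of the measured members. The other probes of ghrb disagreed in sign. The second probe had signals of 310 and 372 in the trained pool, against 399 and 380 in the control pool, both lower, with log2 ratios of -0.36 and -0.03. The third had 278 and 281 in the trained pool, against 302 and 228 in the control pool, with log2 ratios of -0.12 and 0.30. The mean ratios of the 3 probes thus ran from -0.20 to 0.09.

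The gene igf1 encodes the main growth factor under growth hormone control. Its brighter probe had signals of 187 and 174 in the trained pool, against 185 and 193 in the control pool. The order of the pools differed between the arrays, with log2 ratios of 0.02 on array 1 and -0.15 on array 2. The dimmer probe was well above background in both pools on array 1 and in neither on array 2. Its signals were 85.8 and 71.2 in the trained pool, against 71.6 and 73.2 in the control pool. The deposited ratios of the brighter probe, 0.11 and -0.28 with errors of 0.21 each, were opposite too.

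The ligands igf2a and igf2b are the zebrafish copies of Igf2, a growth factor of embryonic and early growth, and each had 1 probe. Signals of igf2a were 335 and 390 in the trained pool, against 455 and 401 in the control pool. Both trained values lay below both control values, and igf2a was the member whose ratio was lower on both arrays, at -0.44 and -0.04. Both trained signals were below both control signals for 14.6% of measured genes, and for 1 of the 7 members. The reverse order held for 10.9% of measured genes and for 0 of the 7. The mean ratio of igf2a, -0.24 or 0.846-fold, was the lowest of the members and stood at percentile 6.79 of all measured genes. With array 2 not turned, igf2a stood at -0.20 and was opposite in sign on the arrays, and igfbp2a was the lowest member, at -0.43. The deposited ratios were -0.25 and 0.05, with errors of 0.21 each, so the sign on array 2 depended on the processing.

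Signals of igf2b were 639 and 860 in the trained pool, against 843 and 814 in the control pool. The trained values lay on either side of the control values, and the log2 ratios were -0.40 and 0.08. The 2 copies thus shared a lower value on array 1 and a value near 0 on array 2. The mean of igf2b was -0.16, and 0.00 under the deposited ratios. Those were -0.12 on array 1 and 0.12 on array 2, with errors of 0.20 each.

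The genes igf1ra and igf1rb encode the copies of the IGF receptor, and none of their 3 probes was measured in all 4 channels. Each was well above background in the trained pool on both arrays and in the control pool on array 1, but not in the control pool on array 2, which carried Cy5. The same channel alone was missing for the probe of gh1 and the dimmest probe of igfbp3. Over the whole array it was the only channel missing for 2558 probes, against 168, 12 and 3 probes for trained on array 1, trained on array 2 and control on array 1. The missing control value is thus shared by many other probes on that array.

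Signals of the brighter igf1ra probe were 84.3 and 80.0 in the trained pool, against 84.3 and 80.0 in the control pool. The other had 87.8 and 77.1 in the trained pool, against 81.8 and 81.3 in the control pool. For igf1rb they were 90.1 and 77.1 in the trained pool, against 87.5 and 75.8 in the control pool. Log2 ratios of these 3 probes stayed between -0.08 and 0.10 on either array. An offset of 50 had been added to every signal before the ratio, which pulls the ratios of such dim probes towards 0. The scanner software's deposited ratio of igf1rb was 0.75 on array 1 and -0.13 on array 2, with errors of 0.29 and 0.56.

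The binding protein gene igfbp2a had the widest disagreement of the arrays in one direction, and igfbp3 in the other. Igfbp2 proteins bind IGFs in the circulation and are known to restrain growth in zebrafish embryos. The brightest igfbp2a probe had signals of 4982 and 6138 in the trained pool, against 6097 and 4163 in the control pool. The pool in Cy3 was the brighter on each array, with log2 ratios of -0.29 and 0.56. The dye component, the mean Cy5 over Cy3 ratio, was -0.43, and 3.47% of measured genes had one at least as large in either direction.

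The other igfbp2a probes showed less of this. The second had signals of 2512 and 2511 in the trained pool, against 2543 and 2286 in the control pool, with log2 ratios of -0.02 and 0.14. The third had 263 and 238 in the trained pool, against 244 and 197 in the control pool, and was the only measured member probe higher on both arrays, at 0.11 and 0.28. All 3 igfbp2a probes had a mean above 0, from 0.06 to 0.19, and all 3 were above 0 on array 2. The deposited ratios of array 2 were 0.53, 0.31 and 0.41 for the 3 probes in order of brightness, with an error of 0.21 each. On array 1 they were -0.20, 0.07 and 0.07.

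The gene igfbp3 encodes a binding protein that in mammals carries most IGF in plasma. Its brightest probe had signals of 610 and 378 in the trained pool, against 437 and 498 in the control pool. Here the pool in Cy5 was the brighter on each array, with log2 ratios of 0.48 and -0.40 and a dye component of 0.44. A dye component of that size or more was found for 3.10% of measured genes. The second probe went the other way on each array, with 188 and 189 in the trained pool, against 261 and 176 in the control pool, and log2 ratios of -0.47 and 0.10. The dimmest probe, not measured on array 2 in the control pool, had 85.1 and 79.5 in the trained pool, against 93.0 and 93.2 in the control pool. Its deposited ratios were -0.23 and -0.35, with errors of 0.31 and 0.43, both smaller than their errors. No direction can be given for igfbp3.

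**Figure D2:**
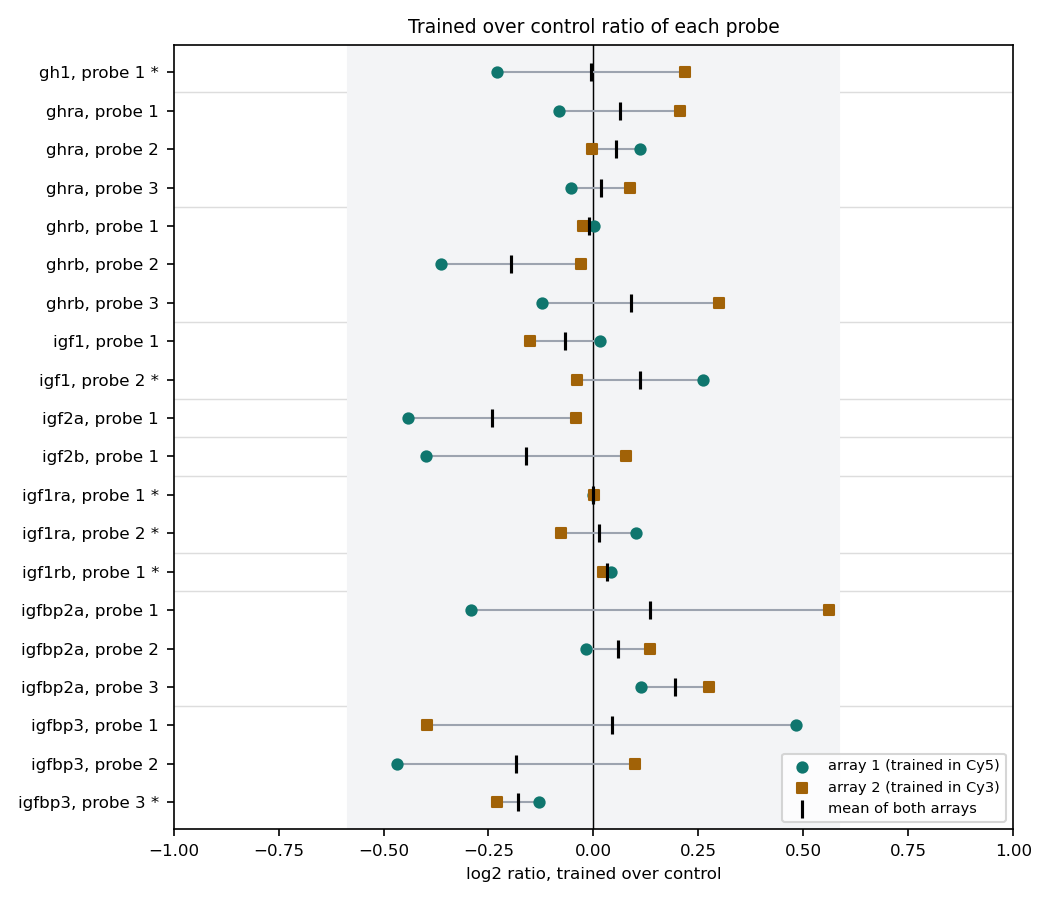
Log2 trained over control ratio of every probe of the 10 genes on array 1 (circles) and array 2 (squares), with the mean as a black tick and the range below 1.5-fold shaded. No probe left the shaded range on either array, and the arrays lay on opposite sides of 0 for most probes.

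No measured member probe reached 1.5-fold on either array alone, and 5.75% of measured probes did so on array 1 or array 2, so that 0 of 14 is near the background. By the deposited ratios and the error that the scanner software gives each spot, 1 of the 14 measured probes was at least 2 errors from 0 on array 1 and 2 of 14 on array 2. These were the second igfbp3 probe on array 1, and the brightest igfbp2a and dimmest ghra probes on array 2. The share over all measured probes was 11.2% on either array. In the same direction on both arrays it was 0 of 14 among the members and 2.32% of all measured probes. The spread between measured probes of a gene was 0.11 among the 4 members with several and 0.12 over 6037 genes (SD, log2 ratio).

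**Figure D3:**
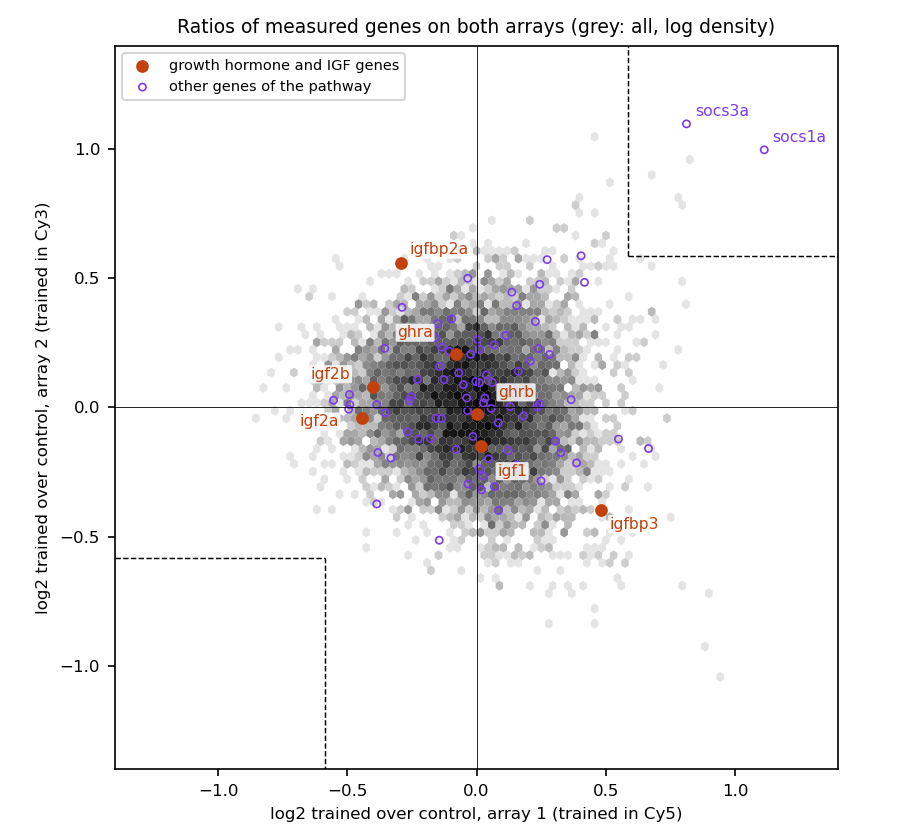
Log2 trained over control ratio on array 1 (x axis) against array 2 (y axis) for 11121 measured genes (grey, log density), other genes of the pathway (purple rings) and the 7 measured growth hormone and IGF genes (orange). Dashed corners mark 1.5-fold on both arrays, which socs1a and socs3a entered; genes beyond 1.4 on an axis are not drawn.

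The rest of the pathway was read from 8 lists holding 143 genes, of which 97 had a probe here and 83 were measured. Of these 83, 2 met the 1.5-fold rule in the higher direction and 0 in the lower, where 0.638% and 0.054% of measured genes did. In all, 28 had a ratio above 0 on each array, 15 below 0 on each and 40 opposite signs. Over all measured genes these shares were 24.3%, 22.1% and 53.6%. They are the background for the sign counts of each list below. The median ratio of the 83 was 0.03. With array 2 not turned, 0 of the 83 met the rule, where 0.566% of measured genes met it higher and 0.009% lower. In that setting socs1a and socs3a stood at 0.06 and -0.14.

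Both genes that met the rule act on the growth hormone receptor and other cytokine receptors. Suppressors of cytokine signalling bind activated receptors or Jak kinases and shut their signal off. The brightest socs1a probe had signals of 887 and 799 in the trained pool, against 410 and 401 in the control pool, and rose 2.08-fold. Its other probe had a mean log2 ratio of 0.87. For socs3a signals were 1894 and 1548 in the trained pool, against 1079 and 724 in the control pool, a rise of 1.94-fold. In both genes every trained signal was above every control signal, an order found for 10.9% of measured genes. Both genes were picked by the size rule, so this order adds no separate support.

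The family member known as the main brake on growth hormone signalling in mammals is Socs2. In these pools socs2 had log2 ratios of -0.02 and 0.21. Among the signal carriers the means were 0.05 for jak2a, -0.02 for jak2b, 0.07 for stat5a and -0.03 for stat5b. The 2 other jak2a probes were opposite in sign, at -0.05 and -0.01. So were the other probe of stat5a, at -0.01, and that of stat5b, at 0.08. The factor gene stat1a had ratios of 0.40 and 0.59, which did not meet the size rule. Of the 14 measured genes at the growth hormone receptor, 7 had ratios above 0 on each array, 1 below 0 and 6 of mixed sign. The shares over all measured genes were 24.3%, 22.1% and 53.6%. Of the 7, stat5a had ratios of only 0.13 and 0.003. The other copy of socs3a, socs3b, had 0.23 and 0.0008, and its 2 other probes had means of 0.07 and 0.13. The gene below 0 on each array was sh2b1, an adaptor of Jak2, at -0.35 and -0.02.

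Control of growth hormone release was covered by 7 measured genes, of which 6 were higher on both arrays, 1 was lower and 0 met the size rule. Of the 6, ghrhra had ratios of only 0.03 and 0.02, with signals near background. Its deposited ratios were -0.36 and -0.41, so its sign depended on the processing. The somatostatin gene sst2 encodes a peptide of the family that inhibits growth hormone release. Its signals were 227 and 192 in the trained pool, against 170 and 138 in the control pool, with log2 ratios of 0.42 and 0.48. A second sst2 probe stood at 0.27. The gene of the neuropeptide Pacap, adcyap1b, had ratios of 0.28 and 0.20, and 1 of its 3 other probes was at -0.05. The deposited ratios of adcyap1b were 0.10 and -0.02, so the sign on array 2 depended on the processing.

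The lower gene was ghrh, whose product stimulates growth hormone release. Its signals were 87.0 and 90.9 in the trained pool, against 104.7 and 97.1 in the control pool, with log2 ratios of -0.27 and -0.09. Under the deposited ratios ghrh stood at -0.82 and -1.74 and met the 1.5-fold rule. The hormones related to growth hormone could not be read, since prl, prl2, smtla and smtlb were well above background in 0 of 4 channels.

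Among 7 measured genes of other IGF and insulin ligands and receptors, 4 had ratios above 0 on each array, 0 below 0 and 3 of mixed sign, and 0 met the size rule. The relaxin-family peptide gene insl5a had ratios of 0.23 and 0.33. The gene igf2r, whose product in mammals clears Igf2, had 0.24 and 0.23, and its other probe stood at 0.15. Its mean ranged from 0.19 to 0.66 over the processing alternatives. Also counted among the 4 were igf3, at 0.03 and 0.04, and insl5b, at 0.01 and 0.23. Under the deposited ratios igf3 stood at 0.39 and -0.16 and insl5b at -0.06 and 0.21, both of mixed sign. For insulin itself, ins, the arrays gave 0.39 and -0.22. The deposited ratios of that probe were 0.16 and 0.22, so the sign on array 2 depended on the processing. The other ins probe had a mean of 0.45.

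Of 12 measured genes for other IGF binding proteins and their regulators, 4 had ratios above 0 on each array, 2 below 0 and 6 of mixed sign, and 0 met the size rule. Igfbp1 binds IGFs and is induced by fasting and low oxygen in fish. The copy igfbp1b had ratios of 0.14 and 0.45, and its other probe had a mean of 0.21. The copy igfbp1a had 0.24 and 0.01, and its other probes stood at 0.34 and -0.02. Also counted among the 4 was igfbp5a, at 0.14 and 0.06. Under the deposited ratios igfbp1a stood at 0.23 and -0.13 and igfbp5a at 0.23 and -0.05, both of mixed sign. The secreted proteases htra1a and htra1b, of a family that in mammals can cleave binding proteins, had means of -0.17 and -0.12.

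At the IGF and insulin receptors 23 genes were measured, of which 0 met the size rule. Their median was -0.09, with -0.16 on array 1 and 0.03 on array 2. In sign, 4 had ratios above 0 on each array, 6 below 0 and 13 of mixed sign. Of the 6, pdpk1b had ratios of only -0.03 and -0.01, and irs2a of -0.01 and -0.11. The gene pik3r3a, a regulatory subunit of phosphoinositide 3-kinase, had signals of 2375 and 1825 in the trained pool, against 3104 and 2366 in the control pool. Its log2 ratios of -0.39 and -0.37 were close on the arrays, and its other probe stood at -0.09. The gene foxo3b, a transcription factor that Akt inhibits, had -0.38 and -0.17, with its other probes at -0.21 and -0.20. Higher on both arrays were the kinase genes pdpk1a, at 0.16 and 0.39, and akt2l, at 0.16 and 0.14. The mean of pdpk1a ranged from 0.19 to 0.75 over the processing alternatives.

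In the mTOR list 3 of 16 measured genes had ratios above 0 on each array, 4 below 0 and 9 of mixed sign, and 0 met the size rule. The translation repressor eif4ebp3 had signals of 1962 and 1610 in the trained pool, against 1623 and 1083 in the control pool. Its log2 ratios were 0.27 and 0.57, and its other probe stood at 0.39. The mTOR inhibitor deptor had 0.24 and 0.48, though 2 of its 3 other probes were opposite in sign. Also above 0 on each array was ddit4, at 0.13 and 0.08, but its deposited ratios were -0.21 and -0.23. The stress-induced sestrins sesn1 and sesn3 had means of -0.33 and -0.25. On arrays 1 and 2 the ratios were -0.14 and -0.51 for sesn1, and -0.49 and -0.007 for sesn3. Of the other sesn1 probes 1 of 2 was at 0.04, and the mean over all its measured probes was -0.12. For mtor itself the arrays gave 0.01 and -0.24, and 2 of its 4 other probes were opposite in sign to its mean of -0.11.

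Of the 4 genes for Igf2 mRNA binding proteins, igf2bp3 was lower on both arrays, at -0.33 and -0.20, and 3 were opposite. These proteins bind and stabilise mRNAs of early development. Of the other igf2bp3 probes, 1 of 2 was opposite in sign, at 0.03.

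**Figure D4:**
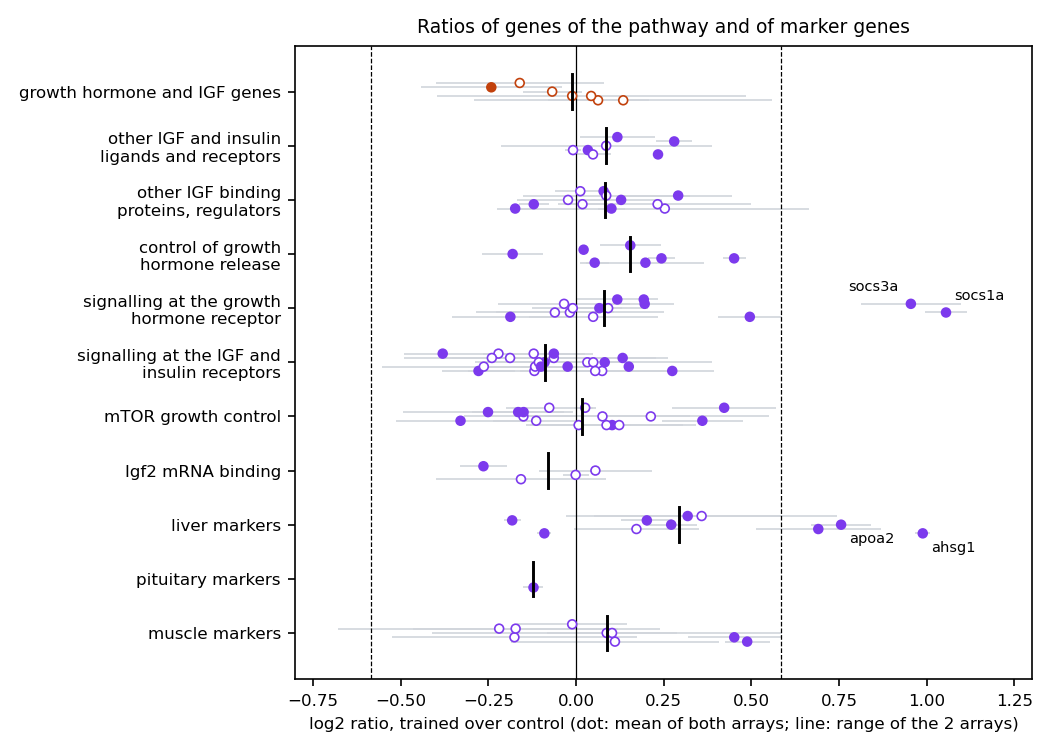
Mean log2 trained over control ratio of each measured gene (dots) with the range of both arrays (grey lines), by list, filled where the arrays share a sign; black bars are list medians and dashed lines 1.5-fold. The growth hormone and IGF genes centre near 0, socs1a and socs3a lie beyond 1.5-fold, and the liver markers have a median of 0.29.

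Markers of the tissues that make these products differed in how well they could be read. Of 10 pituitary markers 1 was measured, and 7 had no channel well above background, including prl, tshba and cga. The measured one, pomca, encodes the precursor of corticotropin and melanotropin. Its signals were 92.5 and 91.6 in the trained pool, against 98.7 and 101.6 in the control pool, with log2 ratios of -0.09 and -0.15. These signals lay near background, and the deposited ratios of pomca were -0.35 and -0.32.

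Liver, a source of circulating Igf1, was represented by 10 measured markers of 15. Of these, 2 met the size rule in the higher direction, ahsg1 and apoa2, where 0.638% of measured genes did, and 0 in the lower. By the deposited ratios apoa2 stood at 0.41 and 0.65 and did not meet the rule. With array 2 not turned, ahsg1 and apoa2 stood at 0.02 and -0.09. In sign, 6 of the 10 were higher on both arrays and 2 lower, against 24.3% and 22.1% of measured genes. The 2 lower were fga and cp, whose other probes were opposite in sign, at 0.02 for fga and 0.07 and 0.22 for cp. The summed signal of the 10 markers was 345581 and 309824 in the trained pool, against 243576 and 257096 in the control pool. The brightest marker, fabp10a, had 150587 and 116782 in the trained pool, against 89904 and 119069 in the control pool, with log2 ratios of 0.74 and -0.03. The igf1 ratios of the same pools were opposite in sign on the arrays, and the part of liver in the IGF values was not tested. All 9 muscle markers were measured, 7 of them opposite in sign on the arrays, against 53.6% of measured genes. Their summed signals were 836370 and 681599 in the trained pool, against 733791 and 860476 in the control pool. The muscle transcription factor genes myod1, at 0.42 and 0.55, and myog, at 0.58 and 0.32, were higher on both arrays, and neither met the size rule.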

How the data were processed

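Per the labels, RNA of 10 larvae was pooled per condition, 400 ng from each, and 100 ng of each pool was labelled for 2-colour Agilent arrays. Arrays were read with Agilent Feature Extraction 10.5.1.1, per the submitters' processing notes. Per the file headers, the scanner files hold median spot and background intensity, deposited flags that are other than measurements, and the software's log10 ratio of Cy5 over Cy3 with its error. Deposited log10 ratios and errors are printed as log2, trained over control. The deposited series value table equals the log10 ratio with array 2 turned to trained over control.

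With limma 3.58.1 (R 4.3.3), ratios were rebuilt from the median intensities by normexp background correction with an offset of 50 and loess within arrays, giving control spots and outliers weight 0. The sign of array 2 was turned, spots of a probe averaged and the arrays averaged. The dye swap counts as 1 replicate, so no p-value was computed. Printed signals are normalised within, not between, arrays. The brightest measured probe stood for its gene. Of 43600 usable probes 30886 (70.8%) were measured, and 13 outlier spots were left out. RefSeq accessions (GRCz12tu) named 25171 probes and left 18429 unnamed. Python 3.11.15, pandas 2.3.3, numpy 2.4.6 and matplotlib 3.10.9 were used. The size rule was tested on simulated data with noise set from the spread between spots of a probe (SD 0.09, log2 ratio). The dye component of measured genes had an SD of 0.20, so the simulation was cleaner than these arrays.

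Members and lists were chosen with earlier results of these data known. All member probes are given. From each list the genes meeting the rule are named, with the 2 highest and 2 lowest of those sharing a sign on both arrays. Other list genes named were chosen after their values were seen. They are socs2, socs3b, jak2a, jak2b, stat5a, stat5b, stat1a, igf3, insl5b, ins, igfbp5a, pdpk1b, irs2a, ddit4, mtor, ghrhra and the marker genes. Alternatives were other background corrections, median centring, deposited ratios, a looser detection filter, the mean over probes, single arrays, size thresholds of 2-fold or 1.2-fold and, added later, array 2 not turned. A marker fixed for the pituitary list is not reported here.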

Additional observations from a re-analysis of the deposited data

How the results depend on the processing

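The count of members meeting the size rule was 0 in both directions under all alternatives run, including each array alone and thresholds of 2-fold and 1.2-fold. The looser detection filter brought all 10 members in. The median ratio of the members ranged from -0.07 with the mean over probes to 0.05 with median centring, and from -0.08 to -0.02 on single arrays. Of the 7 measured members, 5 did not change sign over the 7 alternatives that use both arrays, and ghrb (-0.04 to 0.05) and igfbp3 (-0.07 to 0.10) did. For igf2a the range was -0.28 to -0.10, and on single arrays igfbp2a gave -0.29 and 0.56. Pathway genes meeting the rule numbered 2 higher and 0 lower, but 1 lower (ghrh, at -1.28) with either deposited source, and 0 higher at 2-fold. At 1.2-fold 5 of the 83 were higher and 1 lower, against 3.74% and 1.35% of measured genes. The 5 were socs1a, socs3a, stat1a, sst2 and eif4ebp3, and the lower was pik3r3a. Each array alone gave 3 higher and 0 lower. Of measured probes, 5.75% reached 1.5-fold on array 1 or array 2, in either direction. Of the 28 genes chosen by the naming rule, members included, 26 kept their sign on both-array alternatives. The looser detection filter left the values of these 28 unchanged, and the mean over probes cannot change a gene with 1 measured probe. Other genes named were not followed over the alternatives, apart from the values given above. With array 2 not turned, an alternative chosen after seeing the data, the median of the members was -0.14 and socs3a reversed to -0.14. In that setting 0 pathway genes met the rule in either direction, against 0.566% of measured genes higher and 0.009% lower. The deposited scanner ratios and the series value table are the same values. No paired analysis was possible because both arrays hold the same 2 pools. Signals near background limit gh1, igf1ra, igf1rb, ghrh, ghrhra, pomca, pdpk1a and igf2r.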
